A study of Mus musculus with 15 samples.

Results

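The G2 and mitosis genes followed here are 42 genes that dividing cells switch on as they finish DNA synthesis and divide. They were chosen by name, from cyclin B and its kinase to kinetochore, spindle and cytokinesis proteins. All 42 were found among the 45706 genes measured, and all 42 passed the filter on low counts that left 17650 genes for testing. The cells were lymphatic endothelial cells (LECs), the lining of lymphatic vessels, from lymph nodes. Popliteal, inguinal, cervical, brachial and axillary nodes of female C57Bl/6 mice were pooled, and the cells were Pdpn+, CD31+ and CD45-. The cells were kept in medium with serum and received recombinant murine VEGF-C, made in HEK-293E cells, for 72 h. The 3 groups were unstimulated, 10 ng/mL and 100 ng/mL, with 5 libraries (A to E) in each. No label states that A to E were separate cultures, so p-values measure a spread between libraries that may be technical.

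Cells copy their DNA in S phase and pass through G2 into mitosis. Cyclin A and cyclin B activate the kinase Cdk1, Plk1 and the Aurora kinases drive entry and spindle assembly, and the anaphase-promoting complex with its activator Cdc20 ends mitosis by marking cyclin B for destruction. The mRNAs of these genes are made mainly in G2 and M. The DREAM complex represses them in resting cells through the cell cycle genes homology region of their promoters. The MuvB core with B-Myb and FoxM1 activates them in cycling cells, and the CCAAT-binding factor NF-Y acts on many of the same promoters. VEGF-C signals through the receptor Flt4 (VEGFR-3) and is a growth factor for lymphatic endothelium. Because the members rise and fall together with the share of cells in G2 and M, their mean level is widely read as a mark of proliferation.

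The promoters are shown because most members carry one or both of these elements near the gene start. A promoter here is the stretch from 250 bases before to 50 bases after the gene start, taken from RefSeq on GRCm38.p6, and 35 of the 42 members had one. The 5 printed belong to the members whose library pattern was most like the other members' (Kif20b, Kif23 and Ndc80) and least like it (Cenpf and Bub3) among those with a promoter in the table. Capitals mark TTTGAA or TTCGAA, the letters of the cell cycle genes homology region, and CCAAT, on either strand (so TTCAAA and ATTGG are marked too). The Kif20b sequence is chr19:34922108-34922407 on the plus strand. That of Kif23 is chr9:61946750-61947049 and that of Ndc80 chr17:71526808-71527107, both on the minus strand. That of Cenpf is chr1:189688037-189688336 on the minus strand and that of Bub3 chr7:131560120-131560419 on the plus strand.
Kif20b: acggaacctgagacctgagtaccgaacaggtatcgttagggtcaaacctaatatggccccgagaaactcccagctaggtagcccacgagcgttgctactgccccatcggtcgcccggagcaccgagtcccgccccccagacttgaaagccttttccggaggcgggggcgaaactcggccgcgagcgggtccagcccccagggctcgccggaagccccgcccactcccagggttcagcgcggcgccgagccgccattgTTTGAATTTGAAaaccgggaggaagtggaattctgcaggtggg
Kif23: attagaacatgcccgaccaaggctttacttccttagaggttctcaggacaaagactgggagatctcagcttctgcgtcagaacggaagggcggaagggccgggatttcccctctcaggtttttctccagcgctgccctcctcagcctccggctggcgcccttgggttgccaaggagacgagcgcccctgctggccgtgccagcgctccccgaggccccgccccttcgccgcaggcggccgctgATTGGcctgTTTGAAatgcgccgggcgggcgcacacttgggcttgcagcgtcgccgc
Ndc80: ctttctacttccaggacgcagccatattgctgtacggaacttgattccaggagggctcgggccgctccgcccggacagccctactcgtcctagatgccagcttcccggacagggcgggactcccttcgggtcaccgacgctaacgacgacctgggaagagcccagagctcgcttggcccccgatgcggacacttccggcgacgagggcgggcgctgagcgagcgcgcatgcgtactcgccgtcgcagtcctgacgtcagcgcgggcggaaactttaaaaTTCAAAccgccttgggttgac
Cenpf: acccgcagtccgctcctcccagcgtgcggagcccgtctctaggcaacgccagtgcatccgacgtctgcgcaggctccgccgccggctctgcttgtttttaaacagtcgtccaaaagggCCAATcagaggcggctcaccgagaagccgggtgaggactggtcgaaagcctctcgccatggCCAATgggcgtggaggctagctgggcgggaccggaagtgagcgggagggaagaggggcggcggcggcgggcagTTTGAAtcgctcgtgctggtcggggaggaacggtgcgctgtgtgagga
Bub3: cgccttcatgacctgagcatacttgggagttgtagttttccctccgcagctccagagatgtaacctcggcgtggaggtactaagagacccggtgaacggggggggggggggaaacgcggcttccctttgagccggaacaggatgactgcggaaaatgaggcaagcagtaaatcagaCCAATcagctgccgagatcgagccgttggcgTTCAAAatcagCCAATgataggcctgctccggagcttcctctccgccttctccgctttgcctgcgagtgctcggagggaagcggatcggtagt

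TTTGAA or TTCGAA was present in 28 of the 35 member promoters (80.0%), against 19.4% of 27025 promoters of the same length. CCAAT was present in 27 of 35 (77.1%), against 37.9% of all promoters, and at 2 or more positions in 18 of 35 (51.4%), against 12.2%. Both motifs were present in 24 of 35 (68.6%), against 7.7%. The 40 matches to the first motif had a median first base at -1 counted from the start site, and the 61 CCAAT matches had theirs at -68. In the sequences printed, Kif20b carried 2 adjoining copies of TTTGAA, at 7 to 12 and 13 to 18 bases from the start site. Kif23 carried TTTGAA at 2 to 7 and an ATTGG at -7 to -3. A match is a description of the letters and not evidence of a site. Bub3, the member least like the rest, held both motifs as well.

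Library depth ranged from 27784906 to 38590841 estimated counts. Of 10 LEC markers, Prox1, Flt4, Lyve1, Pdpn, Itga9, Pecam1 and Cdh5 were present in every group, the last 2 shared with blood endothelium and making up most of the sum. Ccl21a was at 0 in unstimulated and 10 ng/mL libraries and averaged 0.0454 CPM at 100 ng/mL. Mmrn1 averaged 0.00623 CPM at 100 ng/mL and 0.0124 CPM in unstimulated libraries, and Reln averaged 22.7 CPM at 100 ng/mL and 0.434 CPM in unstimulated libraries. The LEC markers summed to 4443 to 5139 CPM (counts put on a common depth) in unstimulated, 5008 to 5329 CPM in 10 ng/mL and 6638 to 9341 CPM in 100 ng/mL libraries. Leukocyte markers summed to 52.3 to 144.4 CPM in unstimulated, 45.7 to 118.6 CPM in 10 ng/mL and 24.3 to 44.2 CPM in 100 ng/mL libraries. Epithelial markers summed to 83.1 to 135.4 CPM in unstimulated, 66.6 to 90.2 CPM in 10 ng/mL and 30.7 to 60.2 CPM in 100 ng/mL libraries. Most of that sum was Krt18 in unstimulated libraries (15.1 CPM at 100 ng/mL and 78.6 CPM in unstimulated), while Krt5 was higher at 100 ng/mL (22.1 and 11.3 CPM, edgeR adjusted p = 2.69e-07). The 8 blood endothelial markers summed to 3393 to 4507 CPM in unstimulated, 3335 to 4115 CPM in 10 ng/mL and 2795 to 3620 CPM in 100 ng/mL libraries, with 2 called higher and 2 lower at 100 ng/mL than in unstimulated cells. The 14 genes read for RNA quality and handling (mitochondrial and heat shock genes) summed to 6479 to 9624 CPM in unstimulated, 9816 to 12696 CPM in 10 ng/mL and 9418 to 13287 CPM in 100 ng/mL libraries. The 14 fibroblastic and mural markers summed to 3168 to 4657 CPM in unstimulated, 2654 to 4408 CPM in 10 ng/mL and 928.4 to 1362 CPM in 100 ng/mL libraries, with Pdgfra at 3.87 ± 1.30 CPM in 100 ng/mL against 17.7 ± 9.38 CPM in unstimulated libraries (SD, n = 5 each). Stromal cells can divide too, and the part of these markers in the member levels was not tested. In bulk RNA, fewer cells in mitosis and less mRNA per cell cannot be told apart.

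The members varied between libraries of one group far more than between doses. A member score was formed for each library as the mean over the 42 members of log2 CPM, after subtracting each gene's mean over the 15 libraries. In unstimulated libraries A to E it was -0.16, 0.13, -0.23, 0.20 and 0.62. In 10 ng/mL libraries A to E it was -0.14, -0.52, -0.34, 0.46 and -0.21, and in 100 ng/mL libraries A to E it was -0.14, 0.23, 0.25, -0.19 and 0.04. Every group thus held libraries above and below 0, and the 3 groups overlapped. The group means were 0.11 ± 0.34 in unstimulated, -0.15 ± 0.37 in 10 ng/mL and 0.04 ± 0.21 in 100 ng/mL libraries (SD, n = 5 each). The highest and lowest libraries, unstimulated E and 10 ng/mL B, differed by 1.13 on the log2 scale (2.19-fold), while 13.6% of the variance of the score lay between groups.

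**Figure D1:**
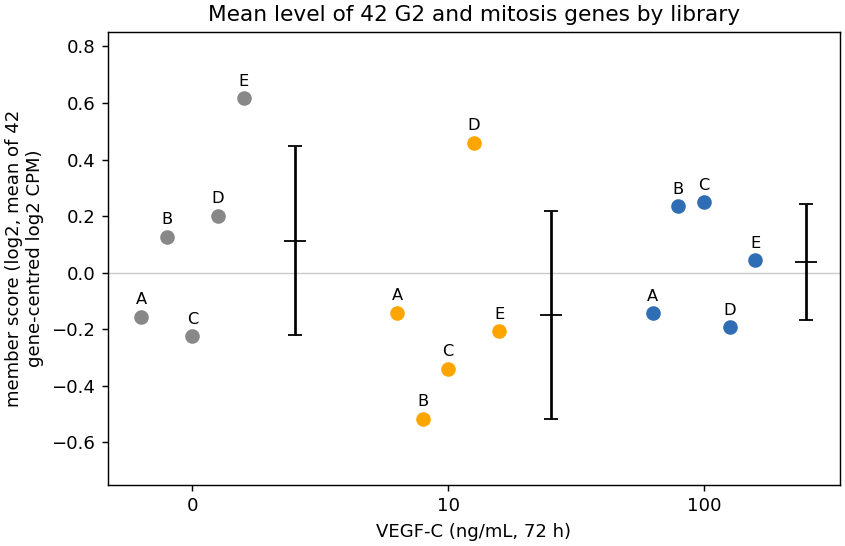
Member score (y axis, log2) of each library (points, lettered A to E) by VEGF-C dose (x axis, ng/mL), with the mean ± SD of 5 libraries beside each group. Unstimulated E at 0.62 and 10 ng/mL D at 0.46 stand above the rest, and 10 ng/mL B at -0.52 is the lowest.

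In abundance, the summed level of the 42 members was 1808, 2223, 1769, 2306 and 2981 CPM in unstimulated libraries A to E. It was 1886, 1482, 1643, 2716 and 1817 CPM in the 10 ng/mL libraries and 1858, 2338, 2474, 1781 and 2131 CPM in the 100 ng/mL libraries. Unstimulated E was the highest of its group for 42 of 42 members and 10 ng/mL D the highest of its group for 42 of 42. Among the 100 ng/mL libraries, C was the highest for 22 members, B for 19 and A for 1. Over all 15 libraries, unstimulated E was the highest for 37 members, 100 ng/mL C for 4 (Cenpf, Nusap1, Mki67 and Smc4) and 100 ng/mL A for 1 (Bub3). The lowest of the 15 was 10 ng/mL B for 37 members.

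**Figure D2:**
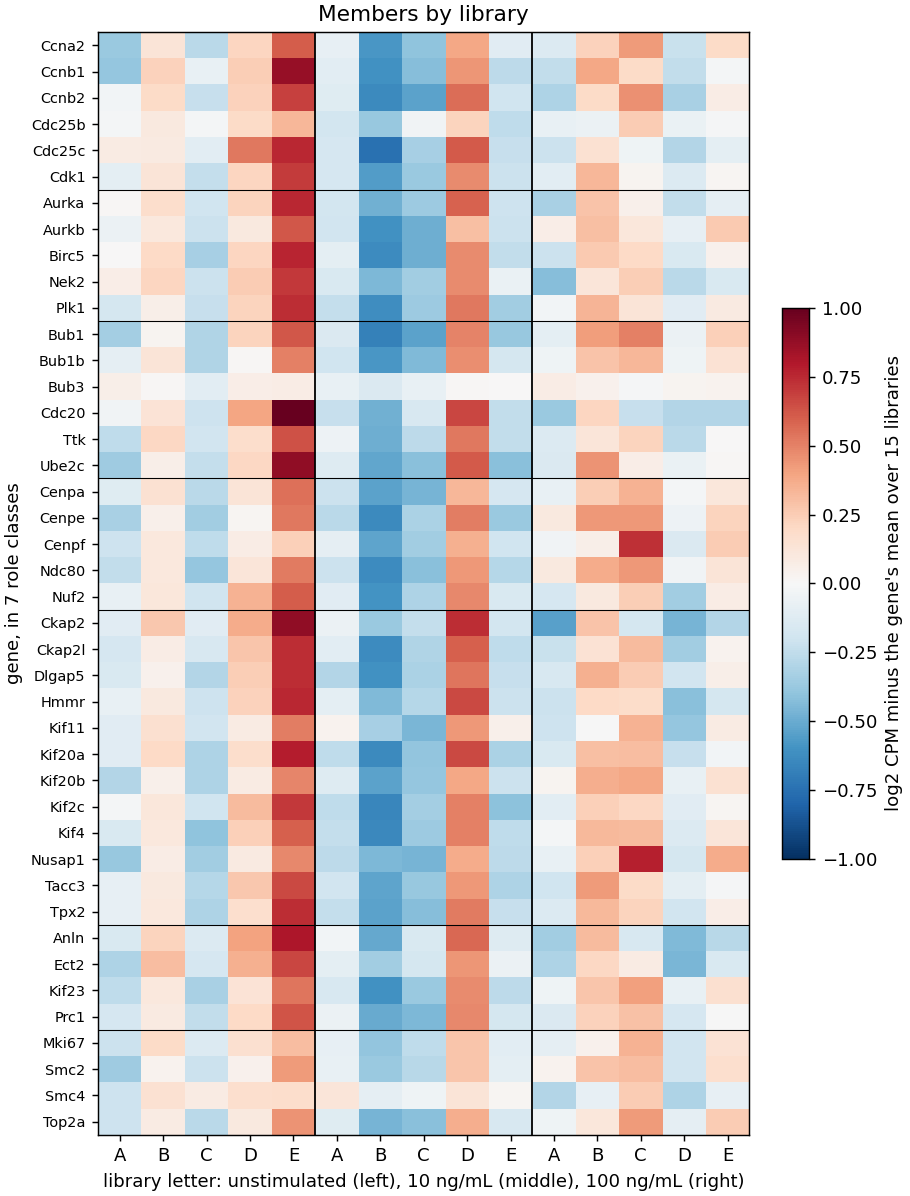
Log2 CPM of each member (rows, in 7 role classes) minus that gene's mean over 15 libraries (colour, red high and blue low), by library (columns, grouped by dose). The columns of unstimulated E and 10 ng/mL D are red and that of 10 ng/mL B is blue for nearly every member, while Bub3 and Smc4 vary little.

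This shared variation can be put as a correlation, given as a description over 15 libraries after removal of the group means. The median Pearson r between pairs of members was 0.94 over 861 pairs, and 841 pairs were above 0.5. Without unstimulated E and 10 ng/mL D, the 2 libraries farthest from the median score, the median was 0.86 over 13 libraries and 801 pairs were above 0.5. The median within-group SD of a member was 0.33 on the log2 scale, against 0.17 over all 17650 genes. The share of a member's variance that lay between the groups had a median of 18.2% (range 5.2 to 33.6%), against 38.1% over all genes. Each member's likeness is its r with the score of the other members, and 38 of 42 exceeded 0.9. The highest belonged to Kif20b (0.996), a kinesin of late mitosis, Kif23 (0.994), the motor of the central spindle, and Ndc80 (0.99), a kinetochore protein that binds microtubules. The lowest were Bub3 (0.544), a checkpoint protein, and Smc4 (0.641), a core subunit of condensin.

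VEGF-C at 100 ng/mL against unstimulated is the main contrast, and no member passed the test in it. In edgeR's quasi-likelihood test with Benjamini-Hochberg adjustment over all 17650 genes, 0 of the 42 members were called at an adjusted p of 0.05, while 42.9% of all genes were called (21.4% higher and 21.5% lower at 100 ng/mL). Of the members, 2 had an unadjusted p under 0.05 and the smallest adjusted p was 0.0935. The member log2 fold changes ran from -0.55 to 0.25 with a median of -0.10, against a median of 0.008 over all genes, and 15 were above 0 and 27 below. No member had groups free of overlap, while 27.2% of all genes did. For 22 of the 42 members the 95% interval of the fold change lay within 1.5-fold in either direction, and for 2 members it reached past 2-fold. The outermost bounds were -1.10 and 0.70 on the log2 scale.

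For 10 ng/mL against unstimulated, all 42 members had log2 fold changes below 0, from -0.41 to -0.05, with a median of -0.27. None was called, nor was any gene (0.0%), and 844 of all genes and 1 member had an unadjusted p under 0.05. The DESeq2 Wald test called 8 genes, none a member. Since the members move together between libraries, these signs are not independent observations. The difference in member score, -0.26, is smaller than the SD of either group. No member was free of overlap, against 1.31% of all genes. The 95% interval lay within 1.5-fold for 9 members.

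For 100 against 10 ng/mL, 35 members had log2 fold changes above 0 and 7 below, with a median of 0.18 and a range of -0.24 to 0.45. Again 0 of 42 were called, with a smallest adjusted p of 0.11, against 40.5% of all genes (19.9% higher and 20.6% lower). No member was free of overlap, against 25.6% of all genes, and the interval lay within 1.5-fold for 16 members. This comparison and the other 2 share their libraries, so their values are not independent.

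**Figure D3:**
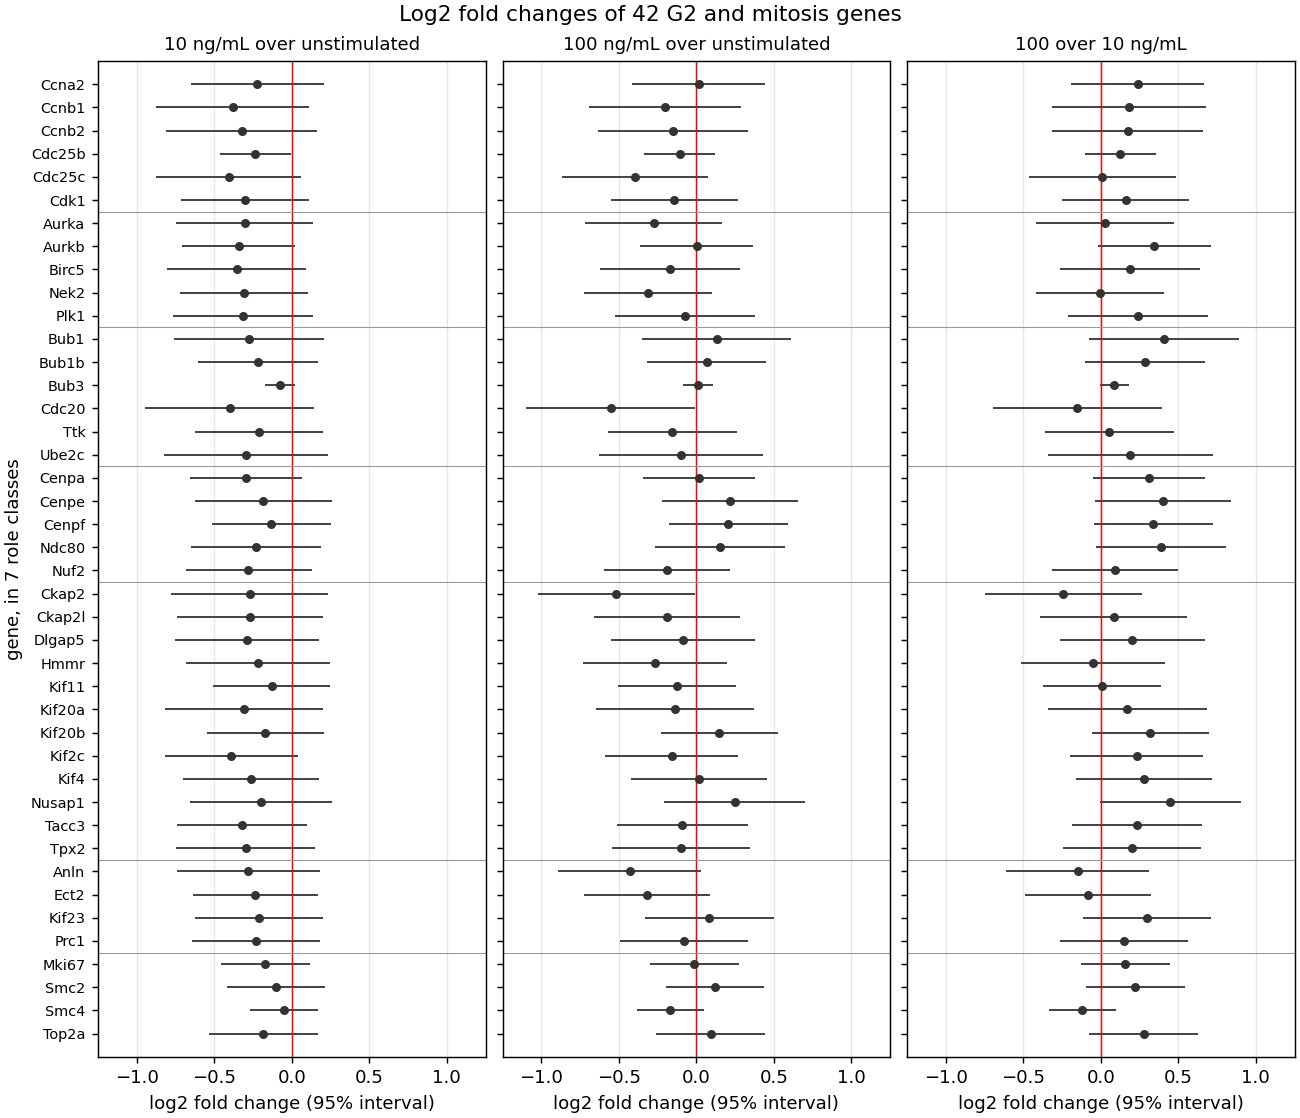
Log2 fold change (x axis) with its 95% interval for each member (y axis, in 7 role classes) in the 3 comparisons. All 42 points lie below 0 for 10 ng/mL over unstimulated, from -0.41 to -0.05, and no member passed the test in any comparison.

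Of the libraries left out 1 at a time, 10 ng/mL D changed the member calls of the third comparison most. Without 10 ng/mL D, 41.5% of all genes were called in either direction, and the member median was 0.39. Of the 42 members, 14 were called, all higher at 100 than at 10 ng/mL. They were Aurkb, Bub1, Bub1b, Cenpa, Cenpe, Cenpf, Kif20b, Kif23, Kif2c, Kif4, Ndc80, Nusap1, Plk1 and Top2a. Without 10 ng/mL D, unstimulated E and 100 ng/mL B, 21 members were called, all higher at 100 than at 10 ng/mL. Of all genes, 46.0% were then called in either direction. These 3 libraries had stood apart in an earlier principal component analysis of all genes, which is not shown here. Removal of the same 3 gave 4 calls for 100 ng/mL against unstimulated (46.7% of all genes), with Cenpe higher and Anln, Cdc20 and Ckap2 lower. Since 10 ng/mL D and unstimulated E were the highest of their groups for every member, their removal lowers the members' spread by construction. It also lowers the means of their groups, which raises the member fold changes against those groups. The higher direction of the calls for 100 against 10 ng/mL without 10 ng/mL D thus follows in part from the library removed. With all libraries the member median of that comparison was 0.18, and 19.9% of all genes were called higher.

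With 3 surrogate variables, estimated from all genes including the members, 10 members were called for 100 ng/mL against unstimulated (58.1% of all genes). Cenpe and Nusap1 were higher, and Anln, Aurka, Cdc20, Cdc25c, Ckap2, Ect2, Hmmr and Nek2 were lower. The same model called Cdc20, Cdc25b and Kif2c lower at 10 ng/mL than in unstimulated cells (0.606% of all genes in either direction). For 100 against 10 ng/mL it called 23 members, all higher (56.9% of all genes in either direction). Variables estimated from the members too can take up variation that the members share, which lowers their spread by construction. For Plk1 in that comparison the SE was 0.08, against 0.21 in the main fit. Anln and Ckap2 were also called lower at 100 ng/mL than in unstimulated cells without 100 ng/mL B, Ckap2 without 10 ng/mL D, and Smc4 without 100 ng/mL C, where Smc4 was also called lower at 100 than at 10 ng/mL. In the 100 ng/mL group, B was the highest library for Anln and Ckap2, and C for Smc4. Removal of a gene's highest library at 100 ng/mL favours a lower call by construction. Without 100 ng/mL B, 7876 of all genes were called for 100 ng/mL against unstimulated. Without 100 ng/mL C, 7581 were called for 100 against 10 ng/mL. All other alternatives left 0 members called.

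The cyclins, Cdk1 and its phosphatases come first by role. Their median log2 fold change was -0.15 for 100 ng/mL against unstimulated (range -0.40 to 0.01, n = 6 genes). Ccnb2 (ENSMUSG00000032218, chr9:70407692-70421547 on GRCm38, minus strand), a B-type cyclin and the class member with the highest RPKM (reads per kilobase of transcript, scaled for depth), had 34.9, 40.6, 30.3, 41.7 and 57.1 CPM in unstimulated libraries A to E. It had 32.8, 22.9, 24.5, 52.3 and 31.0 CPM in the 10 ng/mL libraries and 28.8, 40.6, 48.9, 28.5 and 37.5 CPM in the 100 ng/mL libraries. The groups overlapped, with unstimulated E and 10 ng/mL D high. It averaged 36.8 ± 8.59 CPM at 100 ng/mL and 40.9 ± 10.17 CPM in unstimulated cells (SD, n = 5 each), a log2 fold change of -0.15 ± 0.23 (SE, edgeR adjusted p = 0.632).

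Ccnb1 (ENSMUSG00000041431, chr13:100778650-100786570, minus strand), the principal mitotic cyclin, measured 4.87, 7.46, 6.02, 7.54 and 11.6 CPM in unstimulated libraries. Its values were 5.91, 4.17, 4.74, 8.62 and 5.29 CPM at 10 ng/mL and 5.36, 8.31, 7.27, 5.36 and 6.26 CPM at 100 ng/mL. Its mean RPKM of 0.829 was the lowest of the 42 members, against 12.6 for Ccnb2. Transcripts of Ccnb1-ps, Gm12856, Gm4870 and Gm8416 matched that of Ccnb1 at 94.4 to 99.2% identity, so the level of Ccnb1 is uncertain.

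Cdc25b (ENSMUSG00000027330, chr2:131186949-131198497, plus strand), a phosphatase that activates Cdk1, had the smallest p for 10 ng/mL against unstimulated. It had 29.6, 25.9, 32.8, 39.3 and 28.3 CPM in 10 ng/mL libraries, against 33.2, 36.1, 33.2, 38.5 and 42.5 CPM in unstimulated libraries. The ranges overlapped, and the log2 fold change of -0.23 ± 0.11 (SE) had an unadjusted p of 0.0452 and an edgeR adjusted p of 0.969. Cdc25c, a related phosphatase, had a log2 fold change of -0.40 ± 0.22 for 100 ng/mL against unstimulated (edgeR adjusted p = 0.164), with a 95% interval of -0.87 to 0.07.

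Among the kinases and the chromosomal passenger complex (Plk1, Aurka, Aurkb, Birc5 and Nek2), the median was -0.17 for 100 ng/mL against unstimulated. Plk1 (ENSMUSG00000030867, chr7:122159439-122169873, plus strand), the Polo kinase of mitotic entry, had 21.8, 25.7, 21.0, 28.7 and 41.2 CPM in unstimulated libraries. It had 20.9, 16.0, 19.2, 35.6 and 19.4 CPM at 10 ng/mL and 24.2, 31.2, 27.0, 22.8 and 26.2 CPM at 100 ng/mL. The 100 ng/mL libraries sat within the unstimulated range, and the log2 fold change between them was -0.07 ± 0.21 (SE, edgeR adjusted p = 0.812). The pseudogene Plk-ps1 matches the Plk1 transcript at 93.5% identity and was listed with a mean count 71.7% as high, so reads may be split between them. Aurkb, the kinase of the passenger complex, averaged 21.6 ± 2.27 CPM at 100 ng/mL and 21.6 ± 5.10 CPM in unstimulated cells (SD, n = 5 each), a log2 fold change of 0.001 with a 95% interval of -0.36 to 0.36.

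The checkpoint and anaphase genes held the extremes of variability. Cdc20 (ENSMUSG00000006398, chr4:118432901-118437352, minus strand) varied most, with an SD of 0.444 on the log2 scale over 15 libraries. It had 22.3, 25.1, 19.7, 30.0 and 50.4 CPM in unstimulated libraries, 19.4, 16.3, 20.4, 36.3 and 19.2 CPM at 10 ng/mL, and 17.6, 26.4, 19.4, 18.6 and 18.6 CPM at 100 ng/mL. The 100 ng/mL libraries other than B lay below all 5 unstimulated libraries, and B lay among them. Cdc20 averaged 20.1 ± 3.59 CPM at 100 ng/mL and 29.5 ± 12.3 CPM in unstimulated cells (SD, n = 5 each), a log2 fold change of -0.55 ± 0.26 (SE, edgeR adjusted p = 0.0957). Gm7856 matches its transcript at 93.7% identity and was listed with a mean count 73.7% as high.

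Bub3 (ENSMUSG00000066979, chr7:131560222-131571895, plus strand), which docks checkpoint proteins at kinetochores, varied least, with an SD of 0.07. It had 72.3, 70.2, 64.4, 72.8 and 73.1 CPM in unstimulated libraries, 66.1, 62.7, 66.0, 70.1 and 69.8 CPM at 10 ng/mL and 73.2, 71.4, 68.8, 70.8 and 71.1 CPM at 100 ng/mL. Its highest library was 1.17 times its lowest, where that ratio was 3.09 for Cdc20. Bub3 also had the highest mean RPKM of the members, 17.9. The log2 fold change of 100 ng/mL against unstimulated was 0.01 with a 95% interval of -0.09 to 0.10, the narrowest of the 13 genes given by library here. The near copies Gm9540 and AC122746.1 match its transcript at over 90% identity.

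Kinetochore and centromere genes (Cenpa, Cenpe, Cenpf, Ndc80 and Nuf2) had the highest class median, 0.15 for 100 ng/mL against unstimulated and 0.34 for 100 against 10 ng/mL. The class did not share a sign for 100 ng/mL against unstimulated, where 4 genes were above 0 and Nuf2 was at -0.19 ± 0.19 (SE). Cenpa (ENSMUSG00000029177, chr5:30666777-30674830, plus strand), the centromeric histone H3 variant, had 32.9, 39.9, 29.7, 39.1 and 52.5 CPM in unstimulated libraries. It had 30.8, 24.7, 25.9, 45.0 and 31.8 CPM at 10 ng/mL and 34.1, 42.4, 45.7, 35.4 and 38.8 CPM at 100 ng/mL. All 5 of the 100 ng/mL libraries exceeded 4 of the 10 ng/mL libraries, and 10 ng/mL D lay near their top. The log2 fold change of 100 against 10 ng/mL was 0.31 ± 0.17 (SE, edgeR adjusted p = 0.16), and that of 100 ng/mL against unstimulated was 0.02 (95% interval -0.34 to 0.38). Cenpe, a kinetochore motor, averaged 59.9 ± 8.65 CPM at 100 ng/mL and 51.6 ± 13.5 CPM in unstimulated cells (SD, n = 5 each), a log2 fold change of 0.22 ± 0.20 (SE, edgeR adjusted p = 0.43).

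Kinesins and spindle proteins formed the largest class, with 12 genes and a median of -0.11 for 100 ng/mL against unstimulated. Kif20a (ENSMUSG00000003779), a kinesin needed for cytokinesis, had the highest RPKM of the class. It had 52.3, 65.2, 45.7, 64.0 and 97.6 CPM in unstimulated libraries, 47.6, 36.4, 43.0, 89.4 and 45.6 CPM at 10 ng/mL and 50.9, 69.7, 70.2, 48.4 and 55.7 CPM at 100 ng/mL. Its log2 fold change for 100 ng/mL against unstimulated was -0.14 ± 0.24 (SE, edgeR adjusted p = 0.677). Part of its transcript is identical to one of Cdc23, so its level is uncertain where strand was not used.

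Ckap2 (ENSMUSG00000037725, chr8:22168160-22185819, minus strand), a protein that stabilises spindle microtubules, had the smallest p for 100 ng/mL against unstimulated. It had 28.2, 50.1, 36.4, 29.7 and 33.4 CPM in 100 ng/mL libraries, against 38.0, 49.4, 38.0, 53.0 and 75.8 CPM in unstimulated libraries, and 100 ng/mL B was the library that overlapped. It averaged 35.6 ± 8.73 and 50.8 ± 15.5 CPM in these groups (SD, n = 5 each), a log2 fold change of -0.52 ± 0.24 (SE, edgeR adjusted p = 0.0935). Without 100 ng/mL B, the highest library of its group for Ckap2, the edgeR adjusted p was 0.0316. That removal lowers the group's mean and spread by construction. In 10 ng/mL libraries Ckap2 had 39.3, 31.7, 34.8, 68.4 and 36.1 CPM.

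Nusap1 (ENSMUSG00000027306, chr2:119618298-119651244, plus strand), a microtubule-binding protein of the central spindle, had the smallest p for 100 against 10 ng/mL. It had 24.0, 29.8, 43.2, 22.3 and 32.7 CPM in 100 ng/mL libraries, against 21.0, 18.5, 18.3, 32.7 and 21.1 CPM in 10 ng/mL libraries. All 5 libraries at 100 ng/mL exceeded those at 10 ng/mL other than D. The log2 fold change was 0.45 ± 0.21 (SE, edgeR adjusted p = 0.11), and the adjusted p was 0.0222 without 10 ng/mL D. Unstimulated libraries had 19.4, 26.6, 19.8, 26.9 and 35.3 CPM. Nusap1 overlaps Oip5 in the annotation.

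Of the cytokinesis genes (Anln, Ect2, Kif23 and Prc1), the median was -0.20 for 100 ng/mL against unstimulated. Anln (ENSMUSG00000036777, chr9:22332012-22389188, minus strand), the actin-binding scaffold of the cleavage furrow, had 79.1, 125.0, 90.0, 74.0 and 83.0 CPM at 100 ng/mL, against 90.3, 117.3, 91.4, 132.7 and 176.0 CPM in unstimulated libraries. As with Ckap2, 4 of the 5 libraries at 100 ng/mL lay below all unstimulated libraries and B lay among them. The log2 fold change was -0.43 ± 0.22 (SE, edgeR adjusted p = 0.126), and the adjusted p was 0.0399 without 100 ng/mL B. That library was the highest of its group for Anln, so its removal favours a lower call by construction. In 10 ng/mL libraries Anln had 98.5, 70.3, 90.3, 149.4 and 91.9 CPM. Kif23 had a log2 fold change of 0.08, so the class did not share a sign.

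The chromosome genes (Mki67, Top2a, Smc2 and Smc4) had a median near 0, at 0.04 for 100 ng/mL against unstimulated. Mki67 (ENSMUSG00000031004, chr7:135689784-135716361, minus strand) encodes Ki-67, the protein used as a histological mark of cycling cells. It had 141.5, 187.4, 149.7, 184.0 and 204.0 CPM in unstimulated libraries, 154.9, 124.8, 138.0, 199.1 and 152.9 CPM at 10 ng/mL and 154.1, 169.2, 209.1, 144.1 and 182.1 CPM at 100 ng/mL. The means of 171.7 ± 25.4 CPM at 100 ng/mL and 173.3 ± 26.6 CPM in unstimulated cells (SD, n = 5 each) gave a log2 fold change of -0.01 ± 0.14 (SE, edgeR adjusted p = 0.949), with a 95% interval of -0.30 to 0.28. Smc4 (ENSMUSG00000034349, chr3:69004738-69034623, plus strand) had 136.5, 174.9, 167.1, 177.0 and 177.9 CPM in unstimulated libraries, 171.5, 148.4, 153.0, 172.4 and 160.0 CPM at 10 ng/mL and 128.7, 149.1, 188.0, 127.1 and 148.8 CPM at 100 ng/mL. Its adjusted p for 100 ng/mL against unstimulated was 0.205. Without 100 ng/mL C, its highest library, Smc4 was called lower at 100 ng/mL than in unstimulated cells. The log2 fold change was then -0.27 (edgeR adjusted p = 0.0161), a direction that the removal favours by construction.

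**Figure D4:**
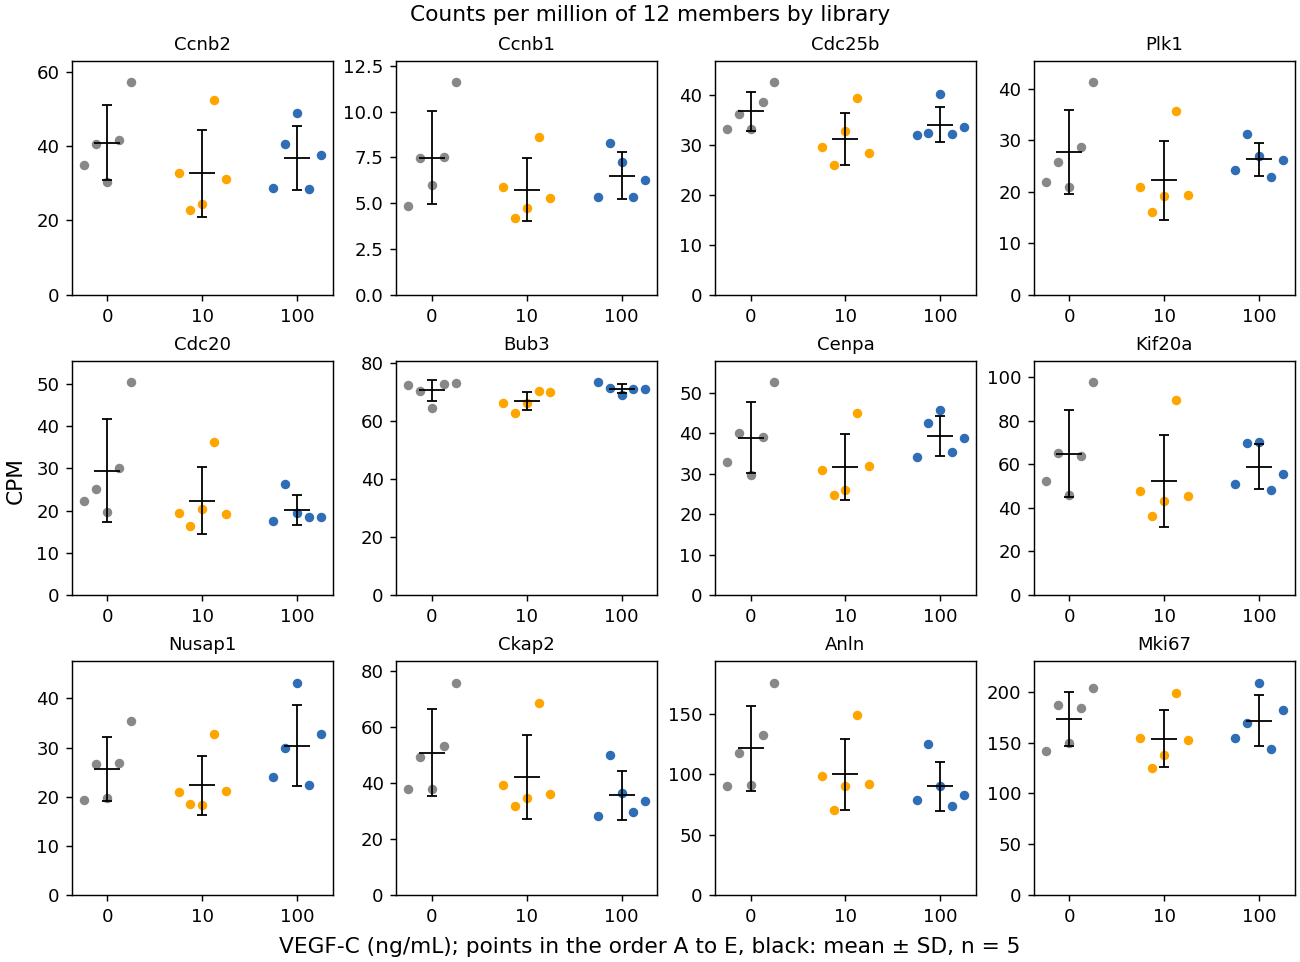
CPM (y axis, from 0) of 12 members by VEGF-C dose (x axis, ng/mL), with 5 libraries per group as points in the order A to E and the mean ± SD in black. The groups overlap in every panel, the unstimulated E and 10 ng/mL D points stand high in most, and Bub3 is nearly level at 62.7 to 73.2 CPM.

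The members can also be read against one another. With the library's member score subtracted from each member's log2 CPM, 11 of the 42 members had groups that did not overlap, 7 higher and 4 lower at 100 ng/mL. The other 31 overlapped. The same subtraction left 11.5% of all genes free of overlap, but it takes out spread that the members share and adds the spread of the score to other genes, so that share is no measure against which to read the members. Without the subtraction, 27.2% of all genes were free of overlap. Relative to the score, all 5 libraries at 100 ng/mL lay above all unstimulated libraries for Kif4, Kif23, Bub1, Kif20b, Ndc80, Cenpe and Nusap1. They lay below for Cdc20, Cdc25c, Nek2 and Hmmr. Cenpe stood at 0.19 ± 0.04 at 100 ng/mL and -0.12 ± 0.05 in unstimulated libraries (SD, n = 5 each, log2 relative to the score). Cdc20 stood at -0.23 ± 0.19 at 100 ng/mL and 0.17 ± 0.21 in unstimulated libraries. These values sum to 0 over the members in every library, so higher members entail lower ones. No test was made of them, and they are descriptions.

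Other cell cycle genes were read from lists written with earlier results of these data known. Of 65 further mitosis genes, 3 were called higher and 1 lower at 100 ng/mL than in unstimulated cells, beside 42.9% of all genes called, with a list median of -0.04. Those higher were Cenpt, a kinetochore anchor, at 36.0 ± 4.27 against 27.6 ± 2.59 CPM (log2 fold change 0.38, edgeR adjusted p = 0.00255), Kif15 and Ncapg2. The calls of Kif15 and Ncapg2 were lost in 14 and 9 of 27 alternatives. The gene that was lower was Wee1, the kinase that restrains Cdk1, at 12.1 ± 1.77 against 17.0 ± 2.92 CPM (-0.49, adjusted p = 0.00439). With 1 library left out, the counts ranged from 1 to 6 higher and 1 to 5 lower, and without unstimulated E they were 6 and 1. For 100 against 10 ng/mL, 7 of the 65 were higher and 1 lower, beside 40.5% of all genes called. Without 10 ng/mL D, 23 were higher and 1 lower, beside 41.5% of all genes called in either direction. Without unstimulated E they were 11 and 1, and without any 1 of the other 10 ng/mL libraries 4 and 1. Unstimulated E and 10 ng/mL D had the highest mean level of this list in their groups. Their removal thus lowers the spread and raises fold changes against those groups by construction. For 10 ng/mL against unstimulated, no gene of any list was called.

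Of the 45 genes of the S phase and replication list, 12 were higher and 1 lower at 100 ng/mL than in unstimulated cells, beside 21.4% and 21.5% of all genes, with a median log2 fold change of 0.17 against 0.008 over all genes. In the same comparison, 9 of the 14 RNA quality and handling genes were higher and 1 lower (median 0.47), with sums of 9418 to 13287 CPM at 100 ng/mL against 6479 to 9624 CPM in unstimulated libraries, and their part in the list counts was not tested. For 100 against 10 ng/mL, 16 of the 45 were higher and 1 lower (median 0.31), beside 19.9% and 20.6% of all genes. Without 10 ng/mL D, 36 were higher and 1 lower, beside 41.5% of all genes called in either direction. That library had the highest mean level of the list in its group. Its removal thus raises these fold changes and lowers the spread by construction. Pcna, the sliding clamp of DNA polymerase, averaged 77.3 ± 2.60 CPM at 100 ng/mL and 59.2 ± 7.23 CPM in unstimulated cells (SD, n = 5 each), a log2 fold change of 0.39 ± 0.09 (SE, edgeR adjusted p = 0.00259). The helicase subunit Mcm2 averaged 122.1 ± 10.9 CPM and 94.3 ± 12.3 CPM in the same groups (0.37 ± 0.10, adjusted p = 0.00523). The polymerase alpha subunit Pola2 averaged 46.1 ± 4.43 CPM and 33.8 ± 1.67 CPM (0.45 ± 0.07, adjusted p = 6.9e-05). Orc6, a subunit of the origin recognition complex, was the gene that was lower. For 100 ng/mL against unstimulated, 8 were higher and 1 lower with library size alone as the scaling, and 21 and 1 without unstimulated E. With 1 library left out, 6767 to 7876 of all genes were called in this comparison. Unstimulated E likewise had the highest mean level of the list in its group, so its removal acts in the same way.

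The list of G1 cyclins and kinases also held Myc, a transcription factor, and Cdc25a, a phosphatase. Of its 10 genes, 5 were higher and 0 lower at 100 ng/mL than in unstimulated cells, beside 21.4% and 21.5% of all genes. The same 5 genes were higher at 100 than at 10 ng/mL. Ccnd2, a D-type cyclin that starts G1 progression, averaged 500.2 ± 115.6 CPM at 100 ng/mL and 157.5 ± 55.7 CPM in unstimulated cells (SD, n = 5 each), a log2 fold change of 1.67 ± 0.27 (SE, edgeR adjusted p = 0.000162). Myc averaged 251.2 ± 47.0 and 120.1 ± 15.4 CPM (1.06 ± 0.13, adjusted p = 1.3e-05). Cdk4, Cdk6 and Ccne1 were the other 3, at log2 fold changes of 0.30, 0.54 and 0.62, and the call of Ccne1 was lost in 3 of 27 alternatives. Ccnd1 averaged 710.3 ± 353.6 and 690.2 ± 111.3 CPM and was not called (adjusted p = 0.919).

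Of 11 cell cycle inhibitors, 2 were higher and 4 lower at 100 ng/mL than in unstimulated cells, beside 21.4% and 21.5% of all genes. Cdkn1c (p57), which blocks cyclin-dependent kinases, averaged 1.14 ± 0.631 CPM at 100 ng/mL and 4.70 ± 0.659 CPM in unstimulated cells (SD, n = 5 each), a log2 fold change of -2.04 ± 0.26 (SE, edgeR adjusted p = 2.1e-05). Cdkn2b (p15) went the other way, at 69.8 ± 15.1 and 30.9 ± 2.35 CPM (1.18 ± 0.12, adjusted p = 3e-06). Cdkn2c, Cdkn2d and Gadd45a were lower and Btg2 higher, and the calls of Btg2 and Gadd45a were lost in 18 and 6 of 27 alternatives. With 1 library left out, 1 to 3 inhibitors were higher and 3 to 5 lower.

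Cell cycle transcription regulators were mixed, with 3 of 24 higher and 6 lower at 100 ng/mL than in unstimulated cells. Of all genes, 42.9% were called in that comparison. Foxm1 averaged 51.1 ± 5.05 CPM at 100 ng/mL and 60.5 ± 13.0 CPM in unstimulated cells (SD, n = 5 each), and was not called (log2 fold change -0.24 ± 0.16, edgeR adjusted p = 0.259). Mybl2 (B-Myb) averaged 14.9 ± 1.85 and 13.6 ± 3.65 CPM (0.14 ± 0.18, adjusted p = 0.591). Rbl2 (p130), the pocket protein of DREAM in resting cells, averaged 27.0 ± 1.60 and 37.1 ± 1.45 CPM (-0.46 ± 0.05, adjusted p = 4e-06), and the retinoblastoma gene Rb1 averaged 42.5 ± 5.54 and 62.5 ± 7.39 CPM (-0.56 ± 0.10, adjusted p = 0.000253). The NF-Y subunits Nfyb and Nfyc and the MuvB subunits Lin9 and Lin52 were also lower, and E2f2, E2f5 and Lin54 were higher. The call of Lin9 was lost in 12 of 27 alternatives. Of 16 genes of the anaphase-promoting complex, 3 were higher and 1 lower, and of 10 cohesin genes 2 were higher and 2 lower, beside the same 42.9%. No cohesin gene was higher with library size alone as the scaling, and with 1 library left out 0 to 2 were higher and 1 to 2 lower.

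Within groups, the lists differed in how closely they followed the member score. Over 15 libraries with group means removed, Pearson's r with the member score was 0.99 for further mitosis genes (Spearman 0.98) and 0.92 for S phase genes (0.81). It was 0.93 for the anaphase-promoting complex (0.91) and 0.93 for the transcription regulators (0.87). Without unstimulated E and 10 ng/mL D these 4 values were 0.98, 0.74, 0.82 and 0.86 over 13 libraries. Gene by gene over 15 libraries, r with the member score exceeded 0.5 for 63 of 65 further mitosis genes and 41 of 45 S phase genes. It did so for only 8 of 16 anaphase-promoting complex genes and 13 of 24 transcription regulators. For G1 cyclins and kinases r was 0.39 and turned to -0.28 without those 2 libraries, and for cell cycle inhibitors it was 0.55 and 0.33. For cohesin genes it was -0.28 and turned to 0.43. All of these scores come from the same libraries and share their depth and scaling, and the values are descriptions. For the markers of other cells, r was -0.33 for leukocytes, -0.12 for fibroblastic and mural cells and 0.34 for epithelial cells, for RNA handling genes it was 0.17, and for LEC markers 0.15. Without unstimulated E and 10 ng/mL D these were -0.41, 0.01, 0.28, 0.36 and -0.05 in the same order.

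**Figure D5:**
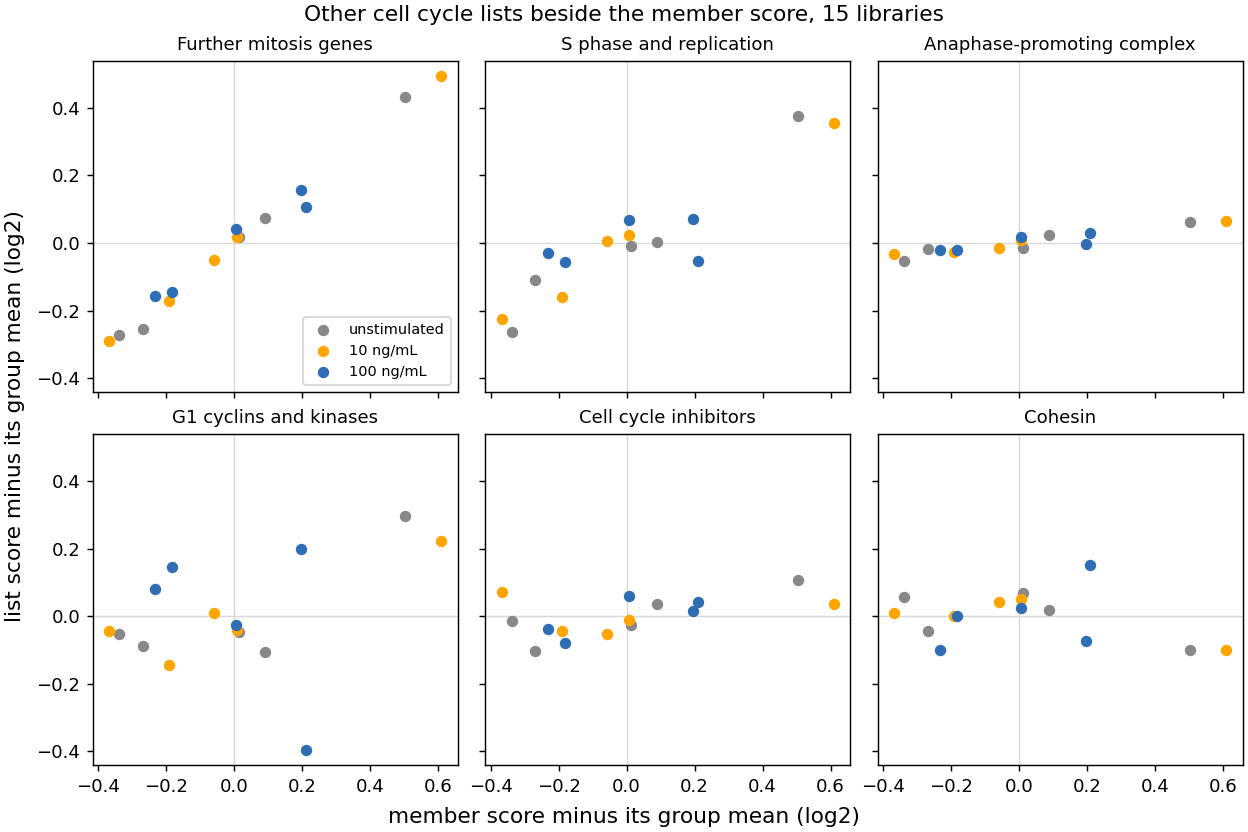
Score of 6 other cell cycle lists (y axis, log2) against the member score (x axis, log2), each minus its group mean, with 1 point per library coloured by dose. Further mitosis genes follow the member score along a line (r = 0.99), while G1 cyclins and kinases (0.39) and cell cycle inhibitors (0.55) scatter and the anaphase-promoting complex moves by little.

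The genes outside the members whose pattern was most like theirs were ranked among 9314 genes whose mean log2 CPM was 3 or more, over 15 libraries with group means removed. The condensin subunit gene Ncaph had the highest r, 0.989, followed by Cdca3 (0.983), Ncapg (0.983), Knstrn (0.981), Prr11 (0.978), Shcbp1 (0.978), Melk (0.977), Cdca2 (0.975), Cep55 (0.975) and Spc25 (0.975). In all, 102 genes had r above 0.9, of which 52 were in the other cell cycle lists. The lowest r belonged to Atxn7l3 (-0.91), Gpr4 (-0.909), Bcl2l2 (-0.908), Ifngr2 (-0.904) and Gga3 (-0.904).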

How the data were processed

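Stranded RNA sequencing libraries were made from poly-A RNA, per the labels' protocols. The authors deposited an estimated count per gene and library (fractional in 64.3% of values) and an RPKM value (reads per kilobase of the listed gene length, scaled for depth), per the file headers. Tools named in the submitters' processing notes are Bowtie2, FastQC and limma, with mm10 (GRCm38) as the build. Which program counted reads, whether it used strand and how it treated multi-mapping reads was not given in the sources used here. That matters for 14 of the 42 members, whose transcripts have near-identical copies (10 members, at least 90% identity over 400 bases, by BLAST) or share stretches with another gene (5 members). Groups and letters came from the sample titles, and no label pairs the letters. Matching letters did not deviate together (r of deviations from group means between -0.342 and 0.132 over all genes).

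Estimated counts were rounded, filtered with filterByExpr (17650 genes kept), scaled by TMM and fitted with group as the only term to all 15 libraries in edgeR 4.0.16 (quasi-likelihood test) under R 4.3.3. P-values were adjusted by Benjamini-Hochberg over all genes, and genes with an adjusted p under 0.05 were called. CPM carry TMM scaling, log2 CPM a prior count of 2. Intervals of fold changes are at 95%. The model was tested on simulated data in which genes varied independently and with the same fixed setting of spread. Those data lacked the members' shared variation between libraries, so the model was not tested on it. Alternatives were DESeq2 1.42.0 size factors and Wald test, library size alone, no filter, 10 CPM in 5 libraries, limma-voom (limma 3.58.1), fits of 10 libraries, a replicate block, limma on log2(RPKM + 1) and log2(RPKM + 0.1), each library left out, 3 libraries left out and 3 surrogate variables (sva 3.50.0). Libraries of 1 group differed beyond counting noise (smallest chi-square per degree of freedom 7.95 over 30 pairs).

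The members, the gene lists and the alternatives were chosen with earlier results of these data known. Genes given by library were the member with the highest RPKM in each role class, those with the smallest p in each comparison and with the largest and smallest SD, and Mki67, Ccnb1 and Cdc20. Other genes named from the lists were chosen after their values were seen. They include called genes and genes that were not called, such as Foxm1, Mybl2 and Ccnd1. Promoters are those of RefSeq on GRCm38.p6, and gene coordinates those of GENCODE M21 on GRCm38.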

Additional observations from a re-analysis of the deposited data

Results flagged for a closer look

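In a group of 5 libraries, a library was taken as standing apart when its gap to the nearest other exceeded 0.71 of the group's range (Dixon's ratio at 95%), which chance alone does in about 1 of 20 groups. Over 189 groups (126 of members and 63 of scores) there were 19 such cases, and 14 of them were members in 10 ng/mL D. That library held Aurka at 39.1 CPM, Cdc20 at 36.3 CPM, Cenpe at 72.5 CPM, Ckap2 at 68.4 CPM, Dlgap5 at 43.7 CPM, Hmmr at 54.9 CPM and Kif20a at 89.4 CPM. It also held Kif2c at 21.1 CPM, Kif4 at 46.1 CPM, Nusap1 at 32.7 CPM, Plk1 at 35.6 CPM, Tacc3 at 51.1 CPM, Tpx2 at 77.0 CPM and Ube2c at 27.4 CPM. In each the other 4 libraries of the group were lower, for Kif20a at 36.4 to 47.6 CPM and for Nusap1 at 18.3 to 21.1 CPM. The members share their pattern between libraries, so these are not separate events.

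Cdc20, whose product activates the anaphase-promoting complex, stood apart in 100 ng/mL B at 26.4 CPM, with the other 4 libraries of the group at 17.6 to 19.4 CPM. Cdc25b stood apart in 100 ng/mL C at 40.1 CPM (others 32.0 to 33.5 CPM). Smc4 stood apart in unstimulated A, where it was low, at 136.5 CPM (others 167.1 to 177.9 CPM). Among the scores, G1 cyclins and kinases were high in unstimulated E, at 0.143 (others -0.26 to -0.202). The LEC markers were high in 10 ng/mL D, at -0.275 (others -0.591 to -0.501). Among 100 ng/mL libraries, B had the lowest LEC marker score, 0.376 (others 0.968 to 1.699). It had the highest epithelial marker score, 0.022 (others -1.255 to -0.805), but not the highest leukocyte marker score. These scores of 100 ng/mL B did not stand apart by the rule used here. In depth 10 ng/mL D was within its group, with 35117405 estimated counts against 33247069 to 38590841 in the other 4.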

How the results depend on the processing

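The absence of called members held under most of the 27 alternatives, and the exceptions depended on libraries or on modelled variation. For 100 ng/mL against unstimulated, 10 members were called with surrogate variables, beside 58.1% of all genes called in either direction. Without 3 libraries (100 ng/mL B, 10 ng/mL D and unstimulated E) 4 were called, beside 46.7%. For 100 against 10 ng/mL, these alternatives called 23 and 21 members, beside 56.9% and 46.0%. Between 10 ng/mL and unstimulated libraries, 3 were called with surrogate variables, beside 0.606%. Leaving out 1 library gave 0 to 2 called members between 100 ng/mL and unstimulated libraries, beside 6767 to 7876 of all genes. It gave 0 to 14 between the doses, beside 6251 to 7581 genes, and 0 for the other comparison. Among all genes tested, 7571 were called between 100 ng/mL and unstimulated libraries, 0 for 10 ng/mL and 7157 for 100 against 10 ng/mL. For the first, 4976 were called with the 10 CPM filter, which tests fewer genes. For 10 ng/mL against unstimulated, 8 were called by the DESeq2 Wald test, 107 with surrogate variables and 0 to 1 with a library left out. The other causes were not tested.

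The replicate block left 0 members called in each comparison and called 7069 genes between 100 ng/mL and unstimulated libraries, 0 for 10 ng/mL and 6582 for 100 against 10 ng/mL. It changed no other call of a member. The letters are not known to pair libraries.

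The member median for 100 ng/mL against unstimulated was -0.10, and it ran from -0.182 to 0.053 with 1 library left out. Its sign turned without unstimulated E (0.053) and without those 3 libraries (0.006). The score differences kept their sign under all 5 other score definitions, at -0.114 to -0.052 (100 ng/mL against unstimulated), -0.296 to -0.222 (10 ng/mL against unstimulated) and 0.14 to 0.201 for 100 against 10 ng/mL, leaving aside the score in SD units (-0.208, -0.788 and 0.581 in the same order). Of 1050 alternative values for the 13 members given by library, 27 passed the threshold, 32 had another sign and none was called with the opposite sign. Of 45 list genes called for 100 ng/mL against unstimulated, 32 were called under every alternative that tested them. With 5 libraries a group and a member SD near 0.33, the 95% interval for 100 ng/mL against unstimulated lay within 1.5-fold for 22 of 42 members.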
